A study of Saccharomyces cerevisiae with 6 samples.

Results

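This account covers 33 genes of the budding yeast cell division cycle, chosen by name from the 5449 S. cerevisiae genes with a probe set on the array: 9 cyclin genes of the main cycle kinase, 3 cyclin genes of the kinase Pho85, the 8 genes of the core histones, 4 ribonucleotide reductase genes and 9 genes for replication, inhibitors, transcription factors and mitotic exit. A probe set carried the name of 32 of them. HHF2, an H4 gene, has no probe set of its own name, and the probe set named for HHF1 carries the suffix _s_at, the manufacturer's mark for probes that match more than 1 transcript. Where a gene had more than 1 probe set, the brighter was used.

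RNA came from chemostat cultures of CEN.PK113-7D, a laboratory reference strain, in minimal medium with 10 g/L glucose, held at the critical dilution rate (the labels' Dcrit, the rate above which yeast starts to make ethanol while oxygen is present). The AOX strain carried plasmid pYX212-AOX, the NOX strain carried pYX212-NOX, and the control strain carried pYX212 without an insert. AOX is the alternative oxidase, which passes electrons to oxygen in mitochondria, and NOX is an oxidase that uses NADH in the cytosol and makes water. Each strain had 2 Affymetrix Yeast Genome 2.0 arrays, 6 in all. Every group thus carried the same plasmid backbone, and all were at Dcrit. The labels name no promoter and give no dilution rate in numbers, so a difference in growth rate between strains cannot be told apart from the plasmid. Nor do they say whether the 2 arrays of a strain came from separate cultures, so the p-values measure the spread between arrays only, which may be technical.

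In budding yeast, the G1 cyclins Cln1, Cln2 and Cln3 drive the cyclin-dependent kinase Cdc28 through the commitment point called Start. Transcription factors that contain Swi4 or Mbp1 then switch on late G1 genes, among them the S phase cyclins Clb5 and Clb6 and the enzymes of DNA synthesis. Histone genes are transcribed in S phase, the mitotic cyclins Clb1 and Clb2 in G2 and M, and genes of Swi5 at the return to G1. Messenger RNA of each set rises and falls once per cycle, so in an unsynchronised culture its level depends on the share of cells in that phase as well as on the amount per cell. In these bulk samples, fewer cells of a phase and less RNA per cell cannot be told apart.

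Values are the deposited probe set intensities on the scale log2(value + 16) after quantile normalization, and differences are on that log2 scale. All 32 measured members were brighter on every array than 95% of the named probe sets that matched no gene of the S. cerevisiae reference. This limit lay between 5.63 and 5.78. These probe sets are called other-organism below, though their organism was not checked. The control arrays lay closest to each other. The members' median difference between replicates, in absolute value, was 0.099 in AOX, 0.128 in NOX and 0.034 in control. The array NOX replicate 1 stood apart in its control probes: hybridisation controls averaged 10.85 there and 9.30 to 9.65 on the other 5 arrays, and the mean of the ribosomal RNA probes was 4.88, with 5.50 to 6.74 elsewhere. Results that rest on an array are therefore also given without it.

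The members differed little between strains. In NOX against control, limma called 1 of 32 members at a Benjamini-Hochberg adjusted p below 0.05, with FAR1 lower, against 3.71% of all 5498 probe sets tested (2.8% higher and 0.909% lower). At an unadjusted p under 0.05 there were 6 members, against 22.3% of all probe sets. In AOX against control it called 0 of 32, against 3.58% of all probe sets (2.55% higher and 1.04% lower). At an unadjusted p under 0.05 there were 3 members (FAR1, RNR1 and CLB1), all higher, against 13.7% of all probe sets in either direction. In AOX against NOX it called 3 of 32, FAR1 and RNR1 higher and RNR2 lower, against 8.38% of all probe sets (4% higher and 4.38% lower). At an unadjusted p under 0.05 there were 9 members, against 22.8% of all probe sets. The members' share called, 3.12%, 0% and 9.38% in these comparisons, was thus near that of all probe sets. The largest difference of any member was 1.47-fold. The 95% interval of limma lay within 1.5-fold in either direction for all 32 members in both comparisons with control, and for 30 of 32 between AOX and NOX, where FAR1 and PCL1 passed that limit. Of all probe sets, 5069, 5169 and 5059 of 5498 lay within it in NOX against control, AOX against control and AOX against NOX. With 2 arrays against 2, an exact permutation test of a single gene cannot go below a two-sided p of 0.333, so none was used.

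**Figure D1:**
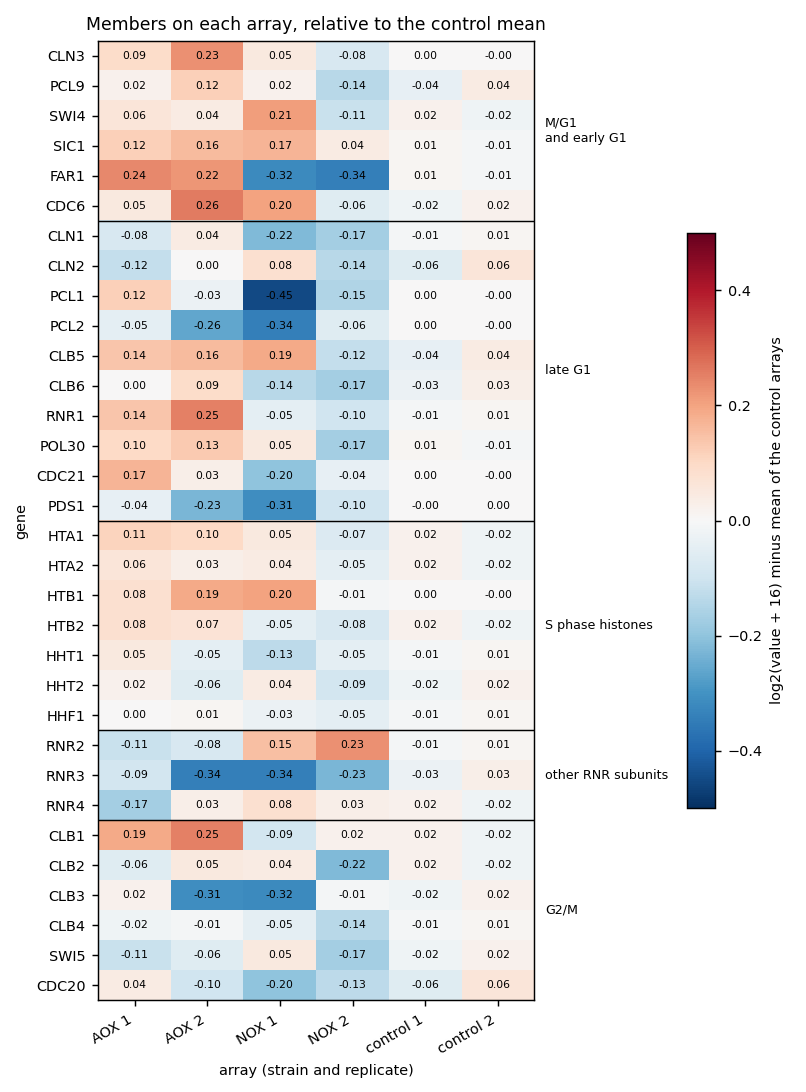
Colour and number give log2(value + 16) of each member on each array minus the mean of the control arrays, with arrays in columns (AOX, NOX, control) and genes in rows by the phase in which their RNA peaks. FAR1 lies above the control mean on both AOX arrays (0.24 and 0.22) and below it on both NOX arrays (-0.32 and -0.34), and the histone rows stay between -0.13 and 0.20.

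The first group holds 6 genes expressed at the end of mitosis or in early G1. FAR1 encodes an inhibitor of the Cdc28 kinase with G1 cyclins, known for arresting cells in G1 when mating pheromone is present. It measured 9.23 and 9.22 on the AOX arrays, 8.67 and 8.65 on the NOX arrays, and 9.0 and 8.98 on the control arrays. The strains did not overlap, and the gap between any 2 strains was many times the gap between replicates. FAR1 was higher in AOX than in NOX by 0.56 (SE 0.05, 1.47-fold; limma adjusted p = 0.00152). It fell by 0.33 in NOX against control (SE 0.05, 1.26-fold; adjusted p = 0.0193). The difference of AOX from control was 0.23 (SE 0.05, 1.17-fold), which did not pass (adjusted p = 0.0657).

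The call between AOX and NOX held in all 16 alternatives, with adjusted p between 0.00105 and 0.0252 and differences between 0.51 and 0.58. The call of FAR1 against control did not hold in all. Without control replicate 1 its adjusted p in NOX was 0.304, without control replicate 2 it was 0.285, and without either AOX array, which leaves fewer residual degrees of freedom, it was 0.0644, while the difference stayed between -0.34 and -0.32. Without NOX replicate 1, the array with the deviating control probes, FAR1 was at -0.34 and still passed. In AOX against control the adjusted p of FAR1 was 0.0287 without either NOX array, which passes.

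SIC1 encodes an inhibitor of Cdc28 with Clb cyclins that holds back S phase. It differed by 0.11 in NOX against control (adjusted p = 0.35) and by 0.14 in AOX against control (adjusted p = 0.386). Within each array, log2 of the deposited FAR1 intensity over that of SIC1 was -0.09 and -0.14 in AOX, -0.70 and -0.60 in NOX, and -0.20 and -0.20 in control. A common scale factor of an array cancels in this ratio, whose size can be compared between arrays but says nothing of the level of one gene against the other. It lay lower on both NOX arrays than on the other 4; the pair was chosen after its values were seen, and the ratio was not tested. CLN3, the cyclin upstream of Start, differed by -0.01 in NOX against control and by 0.16 in AOX against control (adjusted p = 0.922 and 0.412). CDC6, which loads the replicative helicase, differed by 0.07 and 0.16, PCL9, a Pho85 cyclin of early G1, by -0.06 and 0.07, and SWI4, the DNA-binding part of the factor SBF, by 0.05 and 0.05. None of these passed. SWI4 was decided by single arrays: its NOX arrays read 8.15 and 7.82 and its control arrays 7.96 and 7.92, and without NOX replicate 2 the difference was 0.21 with an adjusted p of 0.0313. In AOX, 5 of the 6 genes of this group lay above both control arrays on both arrays, against 28.7% of all probe sets, with a median difference of 0.15. No gene of the group lay below both control arrays there, against 29.4% of all probe sets.

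The 10 late G1 genes were centred slightly lower in NOX. Their median difference was -0.14 in NOX against control, 0.05 in AOX against control and 0.18 in AOX against NOX, and over all probe sets it was 0.00, 0.00 and 0.01 in size. In NOX, 9 of 10 differences were negative and 7 of 10 genes lay below both control arrays on both NOX arrays, against 28.4% of all probe sets. No late G1 gene was called in NOX against control or in AOX against control, where 3.71% and 3.58% of all probe sets were. At an unadjusted p under 0.05 there were 3 of 10 in NOX (CLN1, PCL1 and CLB6), against 22.3% of all probe sets. In AOX against control RNR1 alone had such a p, against 13.7%. Between AOX and NOX 1 of 10 was called (RNR1), against 8.38%, and 5 had an unadjusted p under 0.05, against 22.8%. On both AOX arrays 6 genes lay above both NOX arrays and 0 below, against 24.7% and 21.5% of all probe sets.

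PCL1 encodes a Pho85 cyclin of late G1. It measured 8.94 and 8.79 in AOX, 8.37 and 8.67 in NOX, and 8.82 and 8.81 in control. Both NOX arrays were below the others, but they differed from each other by about as much as NOX did from control. The difference was -0.30 in NOX against control (SE 0.11, adjusted p = 0.191) and 0.34 in AOX against NOX (SE 0.11, adjusted p = 0.136), and neither passed. Without NOX replicate 2 the differences were -0.45 and 0.49, with adjusted p of 0.022 and 0.0158, so the larger size rests on NOX replicate 1 alone. PCL2, a related cyclin gene, differed by -0.20 in NOX and -0.15 in AOX against control. Its lowest arrays were AOX replicate 2 (7.05) and NOX replicate 1 (6.97), and its control arrays both read 7.31.

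Neither late G1 cyclin gene of Start was called. CLN1 measured 8.63 and 8.76 in AOX, 8.50 and 8.55 in NOX and 8.70 and 8.73 in control, a difference of -0.19 in NOX against control (SE 0.06, adjusted p = 0.147). CLN2 differed by -0.03 in NOX and -0.06 in AOX against control, with strains that overlapped. The S phase cyclin genes had values of opposite sign in NOX against control. CLB6 was at -0.16 in NOX against control (adjusted p = 0.18) and 0.20 in AOX against NOX (adjusted p = 0.0925), and CLB5 at 0.04 and 0.11, with its NOX arrays at 8.92 and 8.61 on opposite sides of the control arrays at 8.69 and 8.76. Without NOX replicate 1, CLB5 was higher in AOX than in NOX by 0.26 with an adjusted p of 0.0435.

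Among the late G1 genes for DNA synthesis, RNR1 was higher in AOX than in NOX. RNR1 encodes the large subunit of ribonucleotide reductase, which makes deoxyribonucleotides. It measured 10.92 and 11.03 in AOX, 10.73 and 10.68 in NOX, and 10.77 and 10.79 in control. The AOX arrays were above all 4 others, and the NOX arrays were just below the control arrays. It rose by 0.27 in AOX against NOX (SE 0.06, 1.21-fold; adjusted p = 0.0475), and differed by 0.19 in AOX against control (adjusted p = 0.21) and -0.08 in NOX against control (adjusted p = 0.474). The call is close to the threshold. The adjusted p was 0.0949 without AOX replicate 1, 0.217 without AOX replicate 2, 0.055 without NOX replicate 1 and 0.178 without either control array. It was also 0.0606 with scaling on the other-organism probe sets and 0.0555 with a pseudocount of 1.

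POL30, which encodes the sliding clamp PCNA, differed by 0.18 between AOX and NOX (adjusted p = 0.256), and CDC21, which encodes thymidylate synthase, by 0.22 (adjusted p = 0.157). Each depended on 1 NOX array: without NOX replicate 1 POL30 was at 0.29 (adjusted p = 0.0243), and without NOX replicate 2 CDC21 was at 0.30 (adjusted p = 0.0391). PDS1, which encodes securin, the inhibitor of sister separation, differed by -0.21 in NOX and -0.14 in AOX against control (adjusted p = 0.272 and 0.624).

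Among the other ribonucleotide reductase genes, RNR2 was called in the opposite direction to RNR1. RNR2 encodes the small subunit that carries the radical cofactor. It measured 11.44 and 11.47 in AOX, 11.71 and 11.78 in NOX, and 11.54 and 11.56 in control. The order was the reverse of that of RNR1, with NOX highest and AOX lowest, and no strains overlapped. RNR2 was lower in AOX than in NOX, at -0.29 (SE 0.05, 1.22-fold; adjusted p = 0.0266), and differed by 0.19 in NOX against control (adjusted p = 0.111) and -0.10 in AOX against control (adjusted p = 0.506). Its adjusted p between AOX and NOX was 0.152 without AOX replicate 1, 0.131 without AOX replicate 2, 0.129 without either control array, 0.0668 with scaling on the other-organism probe sets and 0.116 on the deposited values without quantile normalization.

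Within each array, log2 of the deposited RNR1 intensity over that of RNR2 was -0.52 and -0.45 in AOX, -0.96 and -1.11 in NOX, and -0.79 and -0.79 in control. The strains did not overlap on this ratio, which was also chosen after the values were seen and was not tested. RNR4, the partner of RNR2 in the small subunit, measured 11.73 and 11.93 in AOX, 11.98 and 11.94 in NOX, and 11.93 and 11.88 in control, a difference of -0.13 in AOX against NOX (adjusted p = 0.389). RNR3 encodes the alternative large subunit, known for its induction by DNA damage. It measured 7.65 and 7.40 in AOX, 7.40 and 7.51 in NOX, and 7.70 and 7.77 in control. All arrays of both oxidase strains were below the control arrays, by -0.21 in AOX (adjusted p = 0.41) and -0.28 in NOX (adjusted p = 0.164), and neither passed.

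**Figure D2:**
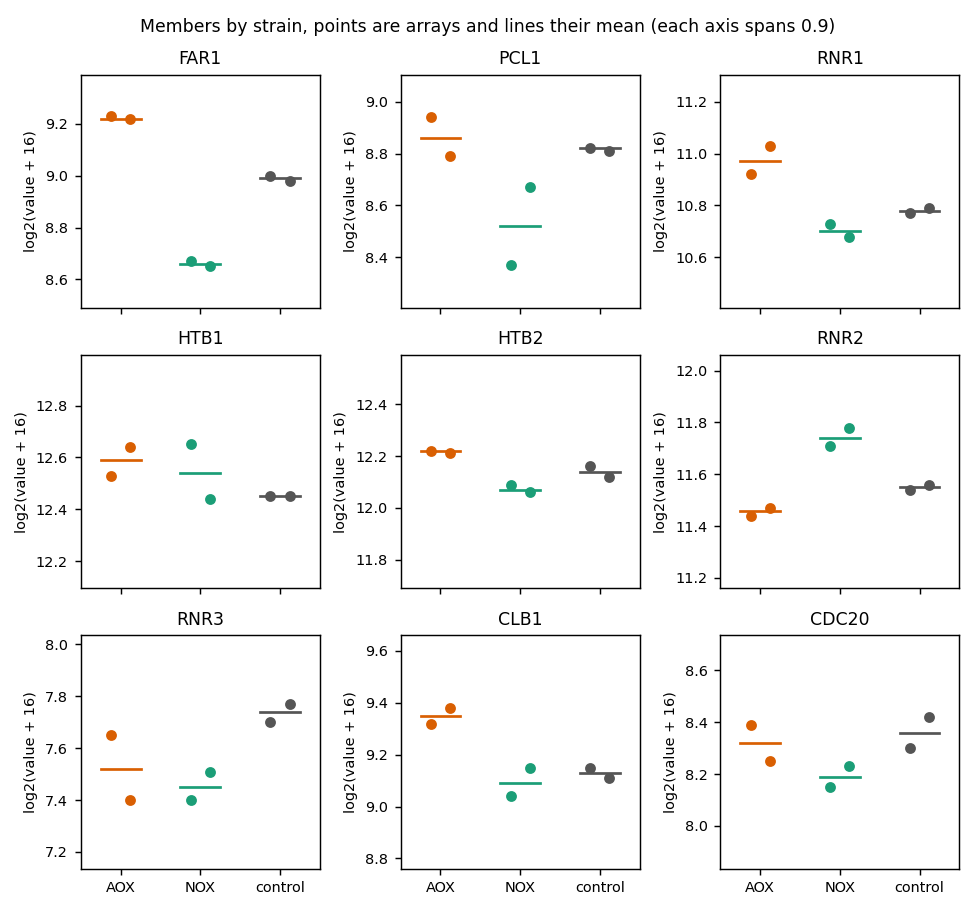
Each panel shows a gene with log2(value + 16) on the vertical axis, which spans 0.9 in all panels, a point per array and a line at the mean of each strain (AOX, NOX, control). FAR1, RNR1 and RNR2 are the genes called between AOX and NOX; for FAR1 the points of a strain nearly coincide, while the NOX points of PCL1 (8.37 and 8.67) and HTB1 (12.65 and 12.44) lie apart.

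The histone genes lay close to control in both oxidase strains. The 8 genes encode H2A (HTA1, HTA2), H2B (HTB1, HTB2), H3 (HHT1, HHT2) and H4 (HHF1, HHF2), and their RNA is normally made in S phase, so their level is commonly read beside the share of cells that replicate. Of 7 measured genes, none was called in any comparison, and at an unadjusted p under 0.05 there were 0 in each comparison with control and 1 (HTB2) in AOX against NOX. Of all probe sets, 3.71%, 3.58% and 8.38% were called in NOX against control, AOX against control and AOX against NOX. At an unadjusted p under 0.05 the shares were 22.3%, 13.7% and 22.8%. With 7 genes, none called is near these shares of calls. Differences lay between -0.09 and 0.09 in NOX against control, between -0.02 and 0.13 in AOX against control, and between 0.01 and 0.14 in AOX against NOX. Their 95% intervals lay between -0.23 and 0.30, between -0.18 and 0.34, and between -0.17 and 0.26 in those comparisons, so a difference as large as 1.5-fold was outside all of them.

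HTB1 had the largest histone difference against control. It measured 12.53 and 12.64 in AOX, 12.65 and 12.44 in NOX, and 12.45 and 12.45 in control. The AOX arrays were above control, but the NOX arrays spanned more than the whole AOX to control gap, and the difference was 0.13 in AOX (SE 0.08, adjusted p = 0.579) and 0.09 in NOX (adjusted p = 0.55). HTB2 measured 12.22 and 12.21 in AOX, 12.09 and 12.06 in NOX, and 12.16 and 12.12 in control, and its AOX against NOX difference of 0.14 (SE 0.05) did not pass (adjusted p = 0.137).

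The histone probe sets are not all independent. Of the 8 probe sets named for histone genes, 2 carry the _s_at mark, that of HHF1 and the brighter of the 2 for HTA2. The HHF1 probe set differed by -0.04 in NOX and 0.01 in AOX against control, and cannot be assigned to HHF1 or HHF2. For HTA2, the shared probe set differed by 0.00 in size and by 0.04, and the other probe set, without the mark, by -0.04 in NOX and 0.06 in AOX against control; neither was called. The H3 genes HHT1 and HHT2 have a probe set each, at -0.09 and -0.02 in NOX against control. The members of each pair encode nearly the same protein, and cross-hybridisation between copies was not tested. The log2 values of the 7 histone probe sets used, 12.06 to 12.65, lay below the highest value on the arrays, 13.82. Quantile normalization makes that highest value the same on every array. Whether the signal of such bright probe sets is compressed was not tested.

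The 6 G2 and M phase genes contained no called gene in any comparison, and at an unadjusted p under 0.05 there were 0 in NOX against control and 1 (CLB1) in each of the others. Over all probe sets 3.71%, 3.58% and 8.38% were called in NOX against control, AOX against control and AOX against NOX. At an unadjusted p under 0.05 these shares were 22.3%, 13.7% and 22.8%. With 6 genes, none called is near the shares of calls. CLB1, a mitotic cyclin gene, was the nearest. It measured 9.32 and 9.38 in AOX, 9.04 and 9.15 in NOX, and 9.15 and 9.11 in control. Both AOX arrays were above the other 4. The difference was 0.26 in AOX against NOX (SE 0.06, adjusted p = 0.056) and 0.22 in AOX against control (SE 0.06, adjusted p = 0.157). Without NOX replicate 2 the first was 0.31 with an adjusted p of 0.0179, and it also passed when arrays were scaled to a common S. cerevisiae median (adjusted p = 0.0443) and with a pseudocount of 64 (0.0465).

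CLB2, the principal mitotic cyclin gene, had differences of -0.01 in AOX against control, -0.09 in NOX against control and 0.09 in AOX against NOX. CDC20, which encodes the activator of the anaphase-promoting complex, measured 8.39 and 8.25 in AOX, 8.15 and 8.23 in NOX, and 8.30 and 8.42 in control. Its NOX arrays were lowest, at -0.17 against control (SE 0.07, adjusted p = 0.257). CLB3 had the widest error of all members (SE 0.14): AOX read 9.94 and 9.62, NOX 9.60 and 9.91 and control 9.90 and 9.94, with 1 low array in each oxidase strain. CLB4 differed by -0.10 in NOX and -0.02 in AOX against control, and SWI5, the transcription factor that switches on SIC1 and other early G1 genes, by -0.06 and -0.08.

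**Figure D3:**
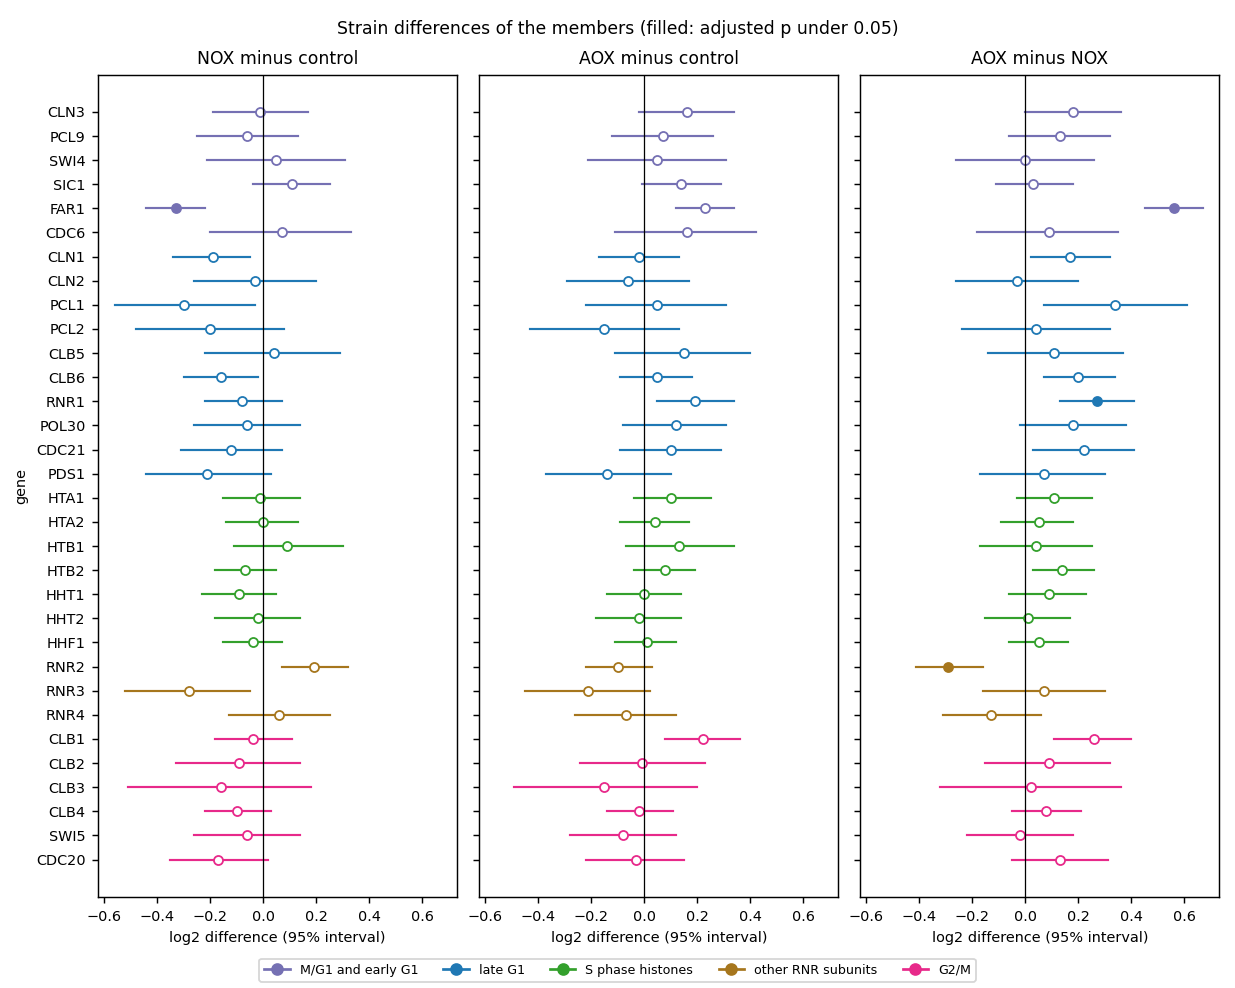
Log2 differences of the 32 members with limma's 95% intervals in NOX minus control, AOX minus control and AOX minus NOX, coloured by phase; filled points passed an adjusted p of 0.05. FAR1 is filled at -0.33 in the first panel and at 0.56 in the third, where RNR1 (0.27) and RNR2 (-0.29) are also filled, and no point is filled in the middle panel.

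Set side by side by phase, the medians of these groups lay between -0.14 and 0.18 in the 3 comparisons. In NOX against control the median difference was 0.02 for M/G1 and early G1 (6 genes), -0.14 for late G1 (10), -0.02 for histones (7) and -0.09 for G2 and M (6). For AOX against control it was 0.15, 0.05, 0.04 and -0.03 for the same groups. Between AOX and NOX it was 0.11, 0.18, 0.05 and 0.08, above 0 in each of these groups. The other ribonucleotide reductase genes (3) had medians of 0.06, -0.10 and -0.13 in the same order of comparisons, so theirs was below 0 between AOX and NOX. The comparisons with control share the same control arrays, so their values are not independent of each other.

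Array by array, the NOX medians of early G1 and of the histones changed sign with the replicate, and those of the other groups did not. The early G1 median relative to the control mean was 0.11 on NOX replicate 1 and -0.10 on NOX replicate 2, and that of the histones was 0.04 and -0.05. For late G1 both were low, at -0.17 and -0.13, and for G2 and M they were -0.07 and -0.13. For the other ribonucleotide reductase genes they were 0.08 and 0.03 in NOX, and -0.11 and -0.08 in AOX. In AOX the early G1 medians were 0.07 and 0.19, the late G1 medians 0.05 and 0.03, the histone medians 0.06 and 0.03 and the G2 and M medians 0.00 and -0.04. The control arrays themselves stayed within 0.01 of their mean in every group. Over all probe sets, 27% lay above and 28.4% below both control arrays on both NOX arrays, so a strain that does not overlap control is common in these data. Between AOX and NOX, 24.7% of all probe sets were higher and 21.5% lower on both AOX arrays.

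**Figure D4:**
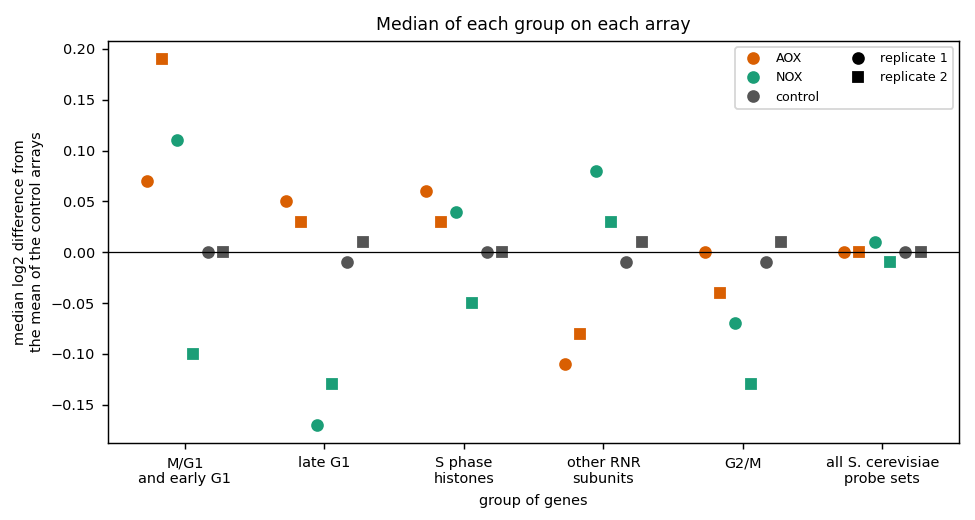
Median over the genes of each phase of log2(value + 16) minus the mean of the control arrays, a circle for replicate 1 and a square for replicate 2 of AOX, NOX and control, with all S. cerevisiae probe sets at the right. The late G1 medians of NOX are both low (-0.17 and -0.13), and the early G1 medians of NOX fall on opposite sides of 0 (0.11 and -0.10).

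The count of members in each direction changed with the arrays in the fit and with the scaling. In AOX against NOX, 28 of 32 members were above 0, with a median of 0.09, while 52.7% of all probe sets were. In NOX against control, 25 of 32 were below 0 and 7 above, with a median of -0.06, while 48.8% of all probe sets were above 0. Without NOX replicate 2 the counts were 21 of 32 above 0 in AOX against NOX and 16 of 32 below 0 in NOX against control. The medians were then 0.06 and -0.01, and 50.1% and 51.6% of all probe sets were above 0. Without AOX replicate 1, 24 of 32 members were above 0 in AOX against NOX, against 53.8% of all probe sets. With scaling on the other-organism probe sets, 19 of 32 were below 0 and 13 above in NOX against control, where 58.2% of all probe sets were above 0. Whether the share of cells in each phase differed between strains was not tested, since the data hold no other measure of phase.

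The wider set of cell cycle genes held few calls. It held 209 further genes in 10 lists, of which 206 had a probe set: replication origins and helicase, the replication fork, regulators of late G1 transcription, other late G1 genes, histone regulators, G2 and M genes, the anaphase-promoting complex, M/G1 genes, septins and budding, and the DNA damage response. In NOX against control 0 rose and 2 fell. In AOX against control 6 rose and 0 fell, and in AOX against NOX 10 rose and 1 fell. Calls made up 0.971%, 2.91% and 5.34% of these genes, each below the share among all probe sets. The median difference was -0.01, 0.01 and 0.04.

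Few genes of the replication machinery itself were called. Of 53 genes for origin recognition, the Mcm helicase and the fork, limma called 0 in NOX against control, 1 in AOX against control and 0 in AOX against NOX, which is 0%, 1.89% and 0% against 3.71%, 3.58% and 8.38% of all probe sets. At an unadjusted p under 0.05 there were 9, 1 and 7, and over all probe sets 22.3%, 13.7% and 22.8%. MCM10, a helicase-associated replication factor, rose by 0.85 in AOX against control (SE 0.11, adjusted p = 0.0158) and was at 0.60 in NOX (adjusted p = 0.054). It read 6.43 and 6.67 in AOX, 6.35 and 6.24 in NOX, and 5.82 and 5.58 in control, where 1 of 2 arrays was below the other-organism percentile. The rise is thus measured from near background. Its call in AOX held in 2 of 6 fits that left out an array, those without a NOX array.

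The calls of the other lists are set beside the same shares of all probe sets, 3.71%, 3.58% and 8.38%. In NOX against control they were 1 of 28 other late G1 genes and 1 of 20 M/G1 genes. In AOX against control they were 1 of 18 regulators of late G1 transcription, 1 late G1 gene, 1 M/G1 gene and 2 of 12 damage genes (16.7%). In AOX against NOX they were 1 regulator, 3 late G1 genes, 1 of 26 G2 and M genes, 1 of 21 genes of the anaphase-promoting complex, 4 M/G1 genes (20%) and 1 damage gene. Histone regulators (15 genes) and septins and budding (14 genes) had 0 called in all 3 comparisons, and at an unadjusted p under 0.05 they had 1 and 3, 0 and 2, and 2 and 0 in the order given above.

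MNN1, a Golgi mannosyltransferase gene with late G1 expression, measured 10.81 and 10.76 in AOX, 9.79 and 9.81 in NOX, and 10.51 and 10.52 in control. The strains were fully separate. It was higher in AOX than in NOX by 0.99 (SE 0.05, adjusted p = 0.000208), fell by 0.72 in NOX against control (adjusted p = 0.00274) and rose by 0.27 in AOX against control (adjusted p = 0.0446). DSE2, a gene expressed in daughter cells, measured 10.90 and 10.81 in AOX, 10.37 and 10.35 in NOX, and 10.82 and 10.83 in control. It fell by 0.46 in NOX against control (adjusted p = 0.01) and was higher in AOX than in NOX by 0.49 (adjusted p = 0.00435).

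SWE1, the kinase that inhibits Cdc28 with mitotic cyclins, measured 8.87 and 8.81 in AOX, 8.31 and 8.22 in NOX, and 8.45 and 8.34 in control. It rose by 0.44 in AOX against control (SE 0.06, adjusted p = 0.0193) and by 0.58 in AOX against NOX (adjusted p = 0.0047). Other genes that were higher in AOX than in NOX were PIR3, a cell wall protein gene (0.52), SCW11, a daughter-specific gene (0.32), and PRY3 (0.33). So were PRY2, of the other late G1 genes (0.32), YOX1, a repressor of early G1 genes (0.34), and HOF1, a cytokinesis gene (0.24). DDR48, a stress and damage responsive gene, was also higher (0.54). APC9, a subunit of the anaphase-promoting complex, was lower (-0.32). PIR3 (0.58), DDR48 (0.63) and DIN7 (0.29) also rose in AOX against control.

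Of the 11 calls between AOX and NOX in these lists, MNN1 and DSE2 passed in all 6 fits that left out an array. Without AOX replicate 1 there were 3 of the 11 left, without AOX replicate 2 also 3, without NOX replicate 1 there were 9, and without either control array 5. Of the 6 calls in AOX against control, 0 were left without control replicate 1, control replicate 2 or AOX replicate 2, and 1 without AOX replicate 1. The 2 calls in NOX against control, MNN1 and DSE2, were lost without either control array, with adjusted p of up to 0.0719 and 0.176.

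Markers of other cell states were read beside these values. The MATa-specific list of 7 genes was above background on all 6 arrays, and its summed intensity was 15870 to 17650 in AOX, 12220 to 13960 in NOX and 14470 to 14650 in control. The sums came in the same order of strains as FAR1, but they add linear intensities, so the brightest genes weigh most in them. A relation to FAR1 was not tested. In AOX against NOX 6 of the 7 genes were above 0 and 1 below, while 52.7% of all probe sets were above 0. On both AOX arrays 5 lay above both NOX arrays and 1 below, against 24.7% and 21.5% of all probe sets. Relative to both control arrays 6 lay above and 1 below, against 28.7% and 29.4%. AGA2, a gene for an adhesion subunit, was highest in NOX (9.93 and 9.90 in AOX, 10.06 and 9.98 in NOX, 9.79 and 9.77 in control). MFA2, a gene for the a-factor pheromone, measured 12.67 and 12.44 in AOX, 11.94 and 12.12 in NOX, and 12.29 and 12.34 in control. It was the 1 gene of 7 called, in AOX against NOX (0.52, limma adjusted p = 0.0302), where 8.38% of all probe sets were called. That call held in 1 of 6 fits that left out an array, the one without NOX replicate 2. The MATalpha-specific list of 4 genes summed to 466 to 485.3 in AOX, 446.2 to 493.3 in NOX and 426.2 to 443.9 in control. Of these 4 genes, limma called 0 in each comparison, and 1 had an unadjusted p under 0.05 in each. For all probe sets, in NOX against control, AOX against control and AOX against NOX, 3.71%, 3.58% and 8.38% were called. At an unadjusted p under 0.05 those shares were 22.3%, 13.7% and 22.8%. On each array 3 or 4 of the 4 MATalpha-specific genes were above the background limit. MF(ALPHA)2, a gene for the alpha-factor pheromone, was below it on 1 AOX array, 1 NOX array and both control arrays.

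Of 12 meiosis and sporulation genes, 2 rose in NOX against control (SPS1 and SPO11), which is 16.7% against 3.71% of all probe sets, and 0 were called in AOX against control, where 0 had an unadjusted p under 0.05. Both calls in NOX were lost without NOX replicate 1 (adjusted p = 0.0521 for SPS1 and 0.0712 for SPO11) and without either control array. Both genes were called lower in AOX than in NOX, 16.7% of the list against 8.38% of all probe sets in that comparison (4.38% lower). Neither of these calls held in every fit that left out an array. The differences there stayed between -0.79 and -0.62 for SPS1 and between -0.41 and -0.25 for SPO11. The summed intensity of the list was 1441 to 1564 in AOX, 1622 to 1745 in NOX and 1530 to 1594 in control.

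Of 13 stationary phase genes, 8 rose in NOX against control, 61.5% against 3.71% of all probe sets: HSP26, SPG4, SIP18, SNO1, GRE1, SPG1, HSP12 and XBP1. In AOX 5 rose against control (HSP26, SPG4, HSP12, YGP1 and GRE1), 38.5% against 3.58% of all probe sets. The list was split in AOX against control, with 8 of 13 genes above 0, 5 below and a median of 0.08. On both AOX arrays 7 genes lay above both control arrays and 5 below, 53.8% and 38.5% against 28.7% and 29.4% of all probe sets. In NOX against control 12 of 13 were above 0, with a median of 0.48. Between AOX and NOX 2 were higher in AOX (HSP12 and YGP1) and 7 lower (HSP26, SPG4, SIP18, SNO1, SPG1, SPG5 and XBP1), 69.2% against 8.38% of all probe sets. Without either control array, 3 of the 8 calls in NOX were left (HSP26, SPG4 and SIP18), and 3 of the 5 calls in AOX (HSP26, HSP12 and YGP1). Those 3 of 5 were also left without either AOX array. Of the 9 calls between AOX and NOX, 6 were left without AOX replicate 1. The summed intensity of the list was 13800 to 14660 in AOX, 14590 to 16080 in NOX and 9793 to 9990 in control. The sum adds linear intensities, so the brightest genes weigh most in it. The part of these marker genes in the differences of FAR1 and the other cycle genes was not tested.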

How the data were processed

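Per the labels, biotin-labelled RNA was read on Affymetrix Yeast Genome 2.0 arrays. What the authors deposited is 1 linear intensity for each probe set and array. The sources used here do not name their summarising program. Titles assigned samples to strains. Of 10928 probe sets, 5498 matched 1 gene of the RefSeq R64 table through Entrez identifiers and were tested, 1746 named probe sets matched none and served as background, and the rest were left out. Coordinates are not printed, since the annotation names no build.

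Intensities were transformed as log2(value + 16) and quantile normalized over the whole table, since array medians differed by up to 0.204. limma 3.58.1 in R 4.3.3 fitted strain means to all 6 arrays together (3 residual and 2.775 prior degrees of freedom), and p-values were adjusted by Benjamini-Hochberg across 5498 tests, with 0.05 as threshold. Errors of differences are limma's standard errors, n = 2 arrays per strain; the number of arrays limits precision. The fit was run on simulated data in which every strain had the same spread for a gene. In the real arrays the median replicate difference over all probe sets was 0.124 in NOX, 0.068 in AOX and 0.028 in control. The simulation therefore cannot show how the fit performs with such unequal spread. The 33 members, their phases and the 14 wider lists were chosen with earlier results of these data known. Values on every array are given for members called in any comparison and for the member with the largest difference per phase and comparison, and called genes of the wider lists are named; other genes shown by array were picked after their values were seen. Alternatives covered the normalization, pseudocounts of 1 and 64, dim probe sets, the variance prior, the arrays in the fit, the replicate number as a block, each array left out, the other probe set of HTA2 and a threshold of 0.01.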

Additional observations from a re-analysis of the deposited data

How the results depend on the processing

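The medians of the members kept their direction in every alternative, but the number of called genes depended on the arrays in the fit. With each array left out in turn, the probe sets called ranged from 14 to 1453 in NOX against control, from 52 to 364 in AOX against control and from 158 to 1467 in AOX against NOX (204, 197 and 461 with all arrays). Members called ranged from 0 to 3, from 0 to 1 and from 1 to 6, and the members' median difference from -0.09 to -0.01, from 0.02 to 0.04 and from 0.06 to 0.15. The highest counts of probe sets in the comparisons with NOX came without NOX replicate 2, where the lone NOX array was assumed to vary like the other strains. With only the arrays compared, 111, 364 and 202 probe sets and 0, 1 and 1 members were called. At a threshold of 0.01 these were 76, 115 and 195 probe sets, with 0 members in NOX against control and 1 in AOX against NOX. Scaling on other-organism probe sets left 1 member called in AOX against NOX.

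Arrays with the same replicate number did not deviate alike in all strains. Deviations from the strain means correlated at -0.6 between NOX and AOX, 0.12 between NOX and control and -0.21 between AOX and control. Replicates of a strain deviate from its mean by equal and opposite amounts. The value of -0.6 thus means that NOX and AOX arrays with unlike replicate numbers tended to deviate in the same direction. The cause of this shared deviation was not tested. With the replicate number as a block, 79, 124 and 237 probe sets and 0, 0 and 1 members were called. That block joined NOX and AOX arrays that tended to deviate in opposite directions, so it cannot account for the shared deviation. A block joining NOX and AOX arrays with unlike numbers was not fitted.

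Some differences that did not pass with all arrays turned in sign when 1 array was left out. Those that moved by over 1 standard error, or passed once turned, ranged as follows. In NOX against control they were -0.14 to 0.02 for PCL9, -0.11 to 0.21 for SWI4, -0.06 to 0.20 for CDC6, -0.14 to 0.08 for CLN2, -0.12 to 0.19 for CLB5, -0.17 to 0.05 for POL30, -0.07 to 0.05 for HTA1, -0.01 to 0.20 for HTB1, -0.09 to 0.04 for HHT2, -0.22 to 0.04 for CLB2, -0.17 to 0.05 for SWI5, -0.02 to 0.14 for PIR3 and -0.05 to 0.18 for YGP1. In AOX against control they were -0.08 to 0.04 for CLN1, -0.17 to 0.03 for RNR4, -0.31 to 0.02 for CLB3 and -0.17 to 0.00 for SPS1. In AOX against NOX they were -0.16 to 0.16 for SWI4, -0.03 to 0.10 for SIC1, -0.04 to 0.22 for CDC6, -0.13 to 0.08 for CLN2, -0.10 to 0.18 for PCL2, -0.04 to 0.26 for CLB5, -0.04 to 0.18 for PDS1, -0.07 to 0.15 for HTB1, -0.06 to 0.07 for HHT2, -0.06 to 0.20 for RNR3, -0.04 to 0.22 for CLB2, -0.14 to 0.18 for CLB3 and -0.13 to 0.09 for SWI5. Moves within 1 standard error also turned the sign of CLN3 (-0.08 to 0.05), HTA2 (-0.05 to 0.04) and CLB1 (-0.09 to 0.02) in NOX against control. In AOX against control they turned that of PCL1 (-0.03 to 0.12), HHT1 (-0.05 to 0.05), HHT2 (-0.06 to 0.02), CLB2 (-0.06 to 0.05), CDC20 (-0.10 to 0.04), DSE2 (-0.01 to 0.07) and HOF1 (-0.01 to 0.04). The cause of these changes was not tested.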

Other observations

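Several members are neighbours in the gene order of the R64 table. CLB1 and CLB6 adjoin each other, and so do CLB2 and CLB5, each pair holding a mitotic and an S phase cyclin gene. CLB1 and CLB6 differed by 0.26 and 0.20 in AOX against NOX, by 0.22 and 0.05 in AOX against control and by -0.04 and -0.16 in NOX against control. CLB2 and CLB5 differed by 0.09 and 0.11, by -0.01 and 0.15 and by -0.09 and 0.04 in the same comparisons. None of these passed the threshold. Histone genes adjoin in pairs of an H2A with an H2B gene or an H3 with an H4 gene. HTB1 and HTA1 differed by 0.13 and 0.10 in AOX against control and by 0.09 and -0.01 in NOX against control, HTA2 and HTB2 by 0.04 and 0.08 in AOX, and HHF1 and HHT1 by -0.04 and -0.09 in NOX. No relation between neighbours was tested.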
